A study of Mus musculus with 6 samples.

Results

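The genes described here are 10 members of the C-type lectin receptor family, chosen by name: *Clec4n*, *Clec4d*, *Clec4e*, *Clec4a1*, *Clec4a2*, *Clec4a3*, *Clec7a*, *Clec5a*, *Clec10a* and *Mrc1*. They are 10 of the 23204 genes of the deposited count table, and all 10 passed the filter on low counts. *Clec4n* was picked because its counts separated the genotypes in an earlier analysis of the same table, and the others because they belong to its family. Their differences between genotypes are therefore given as a description, without a test.

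RNA came from osteoclasts, the bone-resorbing cells of the monocyte lineage, grown from C57BL/6 mouse bone marrow. Adherent cells taken after 2 days in the growth factor M-CSF were cultured with M-CSF and RANKL, which directs these cells to become osteoclasts. The 3 wild-type libraries are numbered 1, 4 and 6 by their column names. Libraries 2, 3 and 5 are labelled Tet2Rank–/–; Tet3aRank+/– and their columns Tet2KOTet3Het, which was taken to mean loss of both *Tet2* alleles and of 1 *Tet3* allele. The labels give 1 female and 2 males per genotype and no age, spell out neither Rank nor the a in Tet3a, and do not say which cells delete the genes or whether animals were pooled. *Tet2*, which encodes an enzyme that oxidises methylated cytosine, stood at 71.7, 80.9 and 79.3 CPM in the wild-type libraries and at 58.2, 45.5 and 52.2 CPM in those labelled mutant. *Tet3* stood at 131 ± 12.4 against 153 ± 11.4 CPM (SD, n = 3 each), so transcript level does not show loss of a *Tet3* copy, and the genotype is written as labelled. Total counts per library ran from 8794973 to 14267135.

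C-type lectin receptors are cell surface proteins of myeloid cells that bind sugars and other ligands on microbes and on the body's own cells. Dectin-2 (*Clec4n*) and Mincle (*Clec4e*) signal through the adaptor FcRγ to the kinase Syk and then through CARD9, BCL10 and MALT1 to NF-kB. The same ITAM adaptors, FcRγ and DAP12, provide the costimulatory signal of osteoclast formation. Other members carry an inhibitory motif, or act mainly in uptake of ligands.

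A group of 6 genes, written here as the *Clec4* run, lie together on chromosome 6 (mm10, all positions from the deposited table). In order they are *Clec4a1* (122921848 to 122934619), *Clec4a3* (122952515 to 122969875), *Clec4a2* (123106428 to 123143999), *Clec4n* (ENSMUSG00000023349, 123229843 to 123247021), *Clec4d* (123262111 to 123275265) and *Clec4e* (123281789 to 123289870). *Clec4e* is on the minus strand and the other 5 are on the plus strand. *Clec5a* (40574894 to 40585821) and *Clec7a* (129461591 to 129472779) lie farther away on chromosome 6, *Clec10a* is on chromosome 11 (70156197 to 70170834) and *Mrc1* on chromosome 2 (14229392 to 14332057). Over GENCODE M21 transcripts, 8 of the 10 genes shared 0 of their 75-base windows, the read length, with another gene. *Clec4a2* shared 3.24% with *Clec4a4* and *Clec4b1*, and *Clec10a* shared 4.44% with *Mgl2*, so a small part of their counts could be divided between copies. None of the 10 overlapped an annotated gene on the opposite strand, while *Mrc1* holds the miRNA gene *Mir511* and *Clec4a2* a processed pseudogene on the same strand.

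Promoter windows from RefSeq (GRCm38.p6, 250 bases before to 50 after a RefSeq start of the gene) were found for 8 of the 10 genes. That start need not be the end of the gene as placed above. Those of 3 genes of the run are printed because their transcripts stood on different sides of the wild-type level: *Clec4a1* and *Clec4d* above it and *Clec4e* below it in the libraries labelled mutant. The 250 bases before the start are shown 5′ to 3′ on the gene's own strand, with capitals for CpG, the dinucleotide that is methylated in mammals. They are chr6:122921598-122921847 (plus strand), chr6:123261857-123262106 (plus strand) and chr6:123289872-123290121 (minus strand).
Clec4a1: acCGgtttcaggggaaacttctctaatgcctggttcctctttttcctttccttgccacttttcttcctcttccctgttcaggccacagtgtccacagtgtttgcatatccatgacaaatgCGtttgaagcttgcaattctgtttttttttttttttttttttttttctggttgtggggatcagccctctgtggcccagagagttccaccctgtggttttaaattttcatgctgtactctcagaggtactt
Clec4d: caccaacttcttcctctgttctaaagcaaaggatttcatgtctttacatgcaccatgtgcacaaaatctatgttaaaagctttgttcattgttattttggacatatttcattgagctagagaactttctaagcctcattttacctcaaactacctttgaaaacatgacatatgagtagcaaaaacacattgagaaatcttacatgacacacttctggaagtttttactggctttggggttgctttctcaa
Clec4e: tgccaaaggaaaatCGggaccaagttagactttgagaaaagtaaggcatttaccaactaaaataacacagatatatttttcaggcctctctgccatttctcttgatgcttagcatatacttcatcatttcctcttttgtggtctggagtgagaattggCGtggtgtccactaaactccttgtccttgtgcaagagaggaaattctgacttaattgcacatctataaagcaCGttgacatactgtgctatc

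The windows held few CpG. The *Clec4d* window of 300 bases had 0, as did 5.43% of the 32851 promoter windows of the same length in the reference table. That of *Clec4a2* had 1, *Clec4a1* had 2, *Clec5a* and *Mrc1* had 3 each and *Clec4e* had 4, of which 3 lie in the printed bases. The *Clec4a2* window belongs to a start inside the gene as placed above. Its 250 bases before that start (123122440 to 123122689) include 68 in annotated exons. The pair of windows of *Clec7a* had 5 each. The pair of windows of *Clec4a3* had 6 and 7, and 7 was also the median over all windows. The letters GAGGAA, the core bound by the myeloid factor PU.1, searched on both strands, occurred 3 times in the windows of *Clec4d* and *Mrc1*. They occurred 2 times in those of *Clec4a1*, *Clec4e* and *Clec5a* and 0 times in that of *Clec4a2*. Each window of *Clec7a* and one of the windows of *Clec4a3* held them once. Of all windows, 28.3% held this hexamer at least once. The AP-1 motif TGANTCA was found only in the *Clec4a2* window among these genes and in 7.81% of all windows. Such matches describe letters and do not show binding or methylation.

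*Clec4n* (dectin-2, a receptor for fungal mannans) stood at 53.2, 50.5 and 58.4 CPM in wild-type libraries 1, 4 and 6. In libraries 2, 3 and 5, labelled mutant, it stood at 152, 206 and 202 CPM. The lowest of these was above every wild-type library. The log2 difference was 1.79 (SE 0.151), a ratio of 3.46. Its coefficient of variation among wild-type libraries was 7.41%, the lowest of the 10 genes there, near 8.21% for *Clec4e* and 9.14% for *Clec4a2*. The choice of *Clec4n* for separating the genotypes favours such a small spread, so nothing is read from it.

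*Clec4d*, the next gene along, encodes MCL, a receptor that pairs with Mincle. It stood at 234, 154 and 152 CPM in the wild-type libraries and at 552, 375 and 493 CPM in those labelled mutant, with no overlap. Its log2 difference was 1.40 (SE 0.234). *Clec4e* encodes Mincle, which binds mycobacterial cord factor and a nuclear protein released by dying cells. It stood at 15.0, 15.5 and 13.2 CPM in the wild-type libraries and at 7.98, 6.62 and 11.0 CPM in those labelled mutant. Here the libraries labelled mutant were all lower than the wild-type ones, and the log2 difference was -0.77 (SE 0.238). These levels rest on 65 to 200 counts per library. The genes for the receptor partners MCL and Mincle, which lie next to each other on opposite strands, stood on different sides of wild type. The ratio of *Clec4e* to *Clec4d* counts was 0.0642, 0.101 and 0.0871 in wild type and 0.0145, 0.0177 and 0.0223 in the libraries labelled mutant.

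The *Clec4a* genes start the run. *Clec4a2* encodes DCIR, whose cytoplasmic tail carries an inhibitory ITIM motif, while *Clec4a1* and *Clec4a3* encode related receptors. *Clec4a1* stood at 153, 146 and 90.4 CPM in the wild-type libraries and at 276, 215 and 242 CPM in those labelled mutant. These groups did not overlap, and the log2 difference was 0.91 (SE 0.224). *Clec4a3* stood at 203, 161 and 99.9 CPM against 246, 166 and 218 CPM, and its groups overlapped (log2 difference 0.44, SE 0.281). *Clec4a2* stood at 245, 209 and 247 CPM against 186, 222 and 188 CPM. Library 3 lay among the wild-type values, and the log2 difference was -0.23 (SE 0.128). This was the smallest difference in the run.

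**Figure D1:**
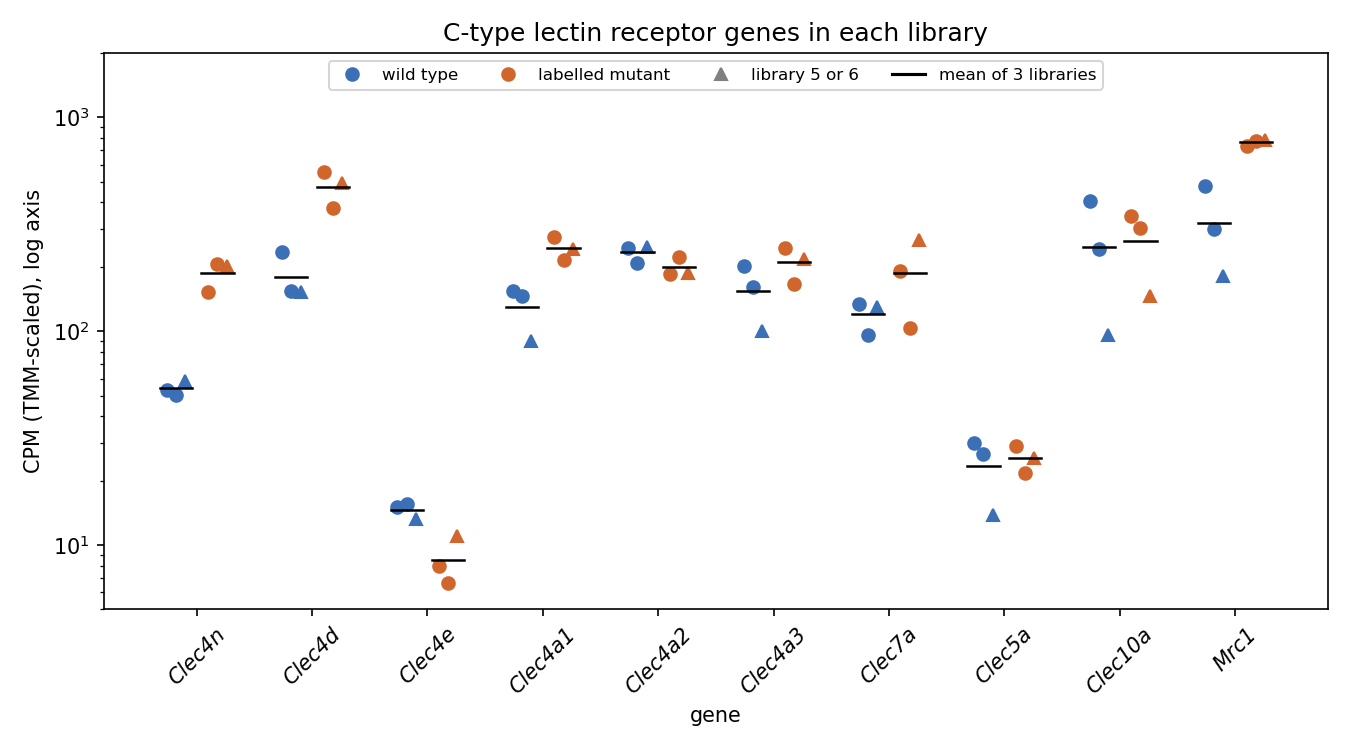
TMM-scaled CPM (log axis) of each of the 10 receptor genes in every library, wild type in blue and labelled mutant in orange, with triangles for libraries 5 and 6 and bars for the mean of 3 libraries. The orange points of Clec4n, Clec4d, Clec4a1 and Mrc1 are all above the blue ones, and those of Clec4e are all below.

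Among the receptors outside the run, *Mrc1* encodes the mannose receptor, an endocytic receptor of macrophages. It stood at 477, 302 and 182 CPM in wild-type libraries 1, 4 and 6 and at 734, 776 and 785 CPM in the libraries labelled mutant. The groups did not overlap. The wild-type libraries spread widely (coefficient of variation 46.4%) and the libraries labelled mutant hardly at all (3.55%). The log2 difference was 1.26 (SE 0.335). *Clec7a* encodes dectin-1, the beta-glucan receptor, which carries its own signalling motif. It stood at 134, 96.2 and 130.0 CPM against 191, 103 and 266 CPM, with library 3 inside the wild-type range (log2 difference 0.64, SE 0.341).

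*Clec5a* encodes a receptor that signals through DAP12. It stood at 30.0, 26.6 and 13.8 CPM in the wild-type libraries and at 29.1, 21.6 and 25.6 CPM in those labelled mutant, and the latter all lay within the wild-type range. The log2 difference was 0.12 (SE 0.297). *Clec10a* encodes a galactose-binding receptor of macrophages and dendritic cells. It ranged from 95.6 to 406 CPM in wild type and from 146 to 344 CPM in the libraries labelled mutant, the latter again inside the former (log2 difference 0.09, SE 0.547). For *Clec5a* the log2 difference ran from -0.14 to 0.33, and for *Clec10a* from -0.29 to 0.64, when each library was left out in turn, so neither had a stable sign.

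In all, 5 of the 10 genes had groups that did not overlap, 4 of them higher and 1 lower in the libraries labelled mutant. Over the 14040 genes tested, 9.91% were higher and 16.9% lower without overlap. Since the genes were chosen with this contrast in view, nothing is read from these counts. The median log2 difference was 0.54 over the 10 genes and -0.03 over all genes tested.

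Levels of different genes were compared as RPKM, that is CPM per kilobase of the merged GENCODE exons. In wild type *Clec4a3* (117 ± 39.0 RPKM, SD, n = 3) and *Clec4d* (113 ± 29.4) stood first. *Clec10a* (85.6 ± 53.5), *Clec4a1* (83.5 ± 22.1) and *Clec4a2* (79.8 ± 7.29) followed, and neighbours in this order did not differ beyond their spread. *Mrc1* (50.2 ± 23.3), *Clec7a* (45.5 ± 7.84) and *Clec4n* (38.0 ± 2.82) came next, with spreads that overlapped. *Clec5a* (6.11 ± 2.22) and *Clec4e* (2.94 ± 0.241) were far below the rest. In the libraries labelled mutant *Clec4d* led at 296 ± 56.4 RPKM. *Clec4n* stood at 132 ± 21.2, after *Clec4a3* (158 ± 30.7) and *Clec4a1* (157 ± 19.7), with a spread that overlapped theirs. *Clec4e* was last in both genotypes.

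Within the *Clec4* run the make-up of the counts differed between the genotypes as well as the sum. The 6 genes summed to 903, 736 and 660.5 CPM in wild type and to 1421, 1191 and 1354 CPM in the libraries labelled mutant. *Clec4n* made up 5.89%, 6.85% and 8.84% of the run's counts in wild type. Its share was 10.7%, 17.3% and 14.9% in libraries 2, 3 and 5. The share of *Clec4a2* was 27.1%, 28.3% and 37.4% in wild type and 13.1%, 18.6% and 13.9% in the libraries labelled mutant. In wild type there were between 4.14 and 4.60 counts of *Clec4a2* for each count of *Clec4n*, and in the libraries labelled mutant between 0.931 and 1.22. The ratio of *Clec4d* to *Clec4n* overlapped between the genotypes, at 2.60 to 4.41 against 1.82 to 3.63.

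**Figure D2:**
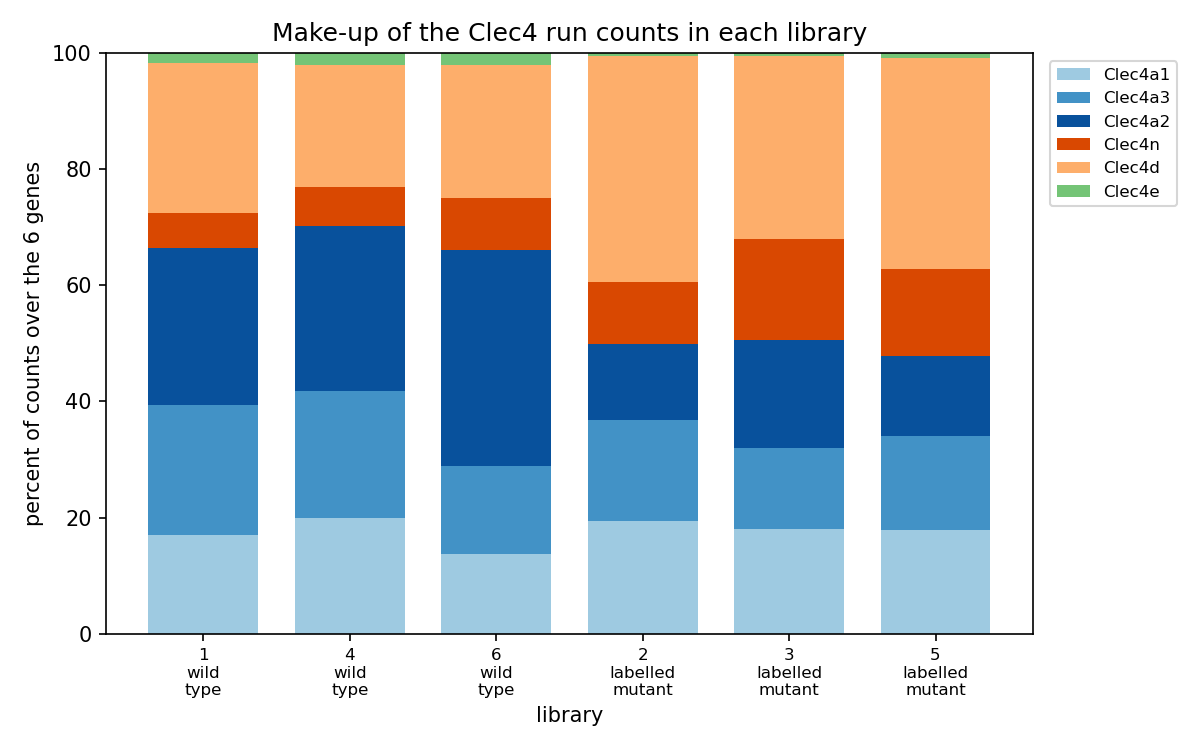
Percent of the summed raw counts of the 6 Clec4 run genes that each gene took in each library, stacked to 100, with the genes in their order on chromosome 6. Clec4n and Clec4d (orange shades) take more of the counts in libraries 2, 3 and 5, and Clec4a2 (dark blue) takes less.

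To compare the run with its surroundings, all genes of the table within 1 Mb of its ends on chromosome 6 were taken. Of 26 such neighbours 15 passed the filter on low counts. Among the 15, 12 had a log2 difference above 0 (6567 of all 14040 genes tested) and 3 below. None passed over all genes (0 of 15) in the edgeR quasi-likelihood test at an adjusted p under 0.05, which called 0.0712% of all genes tested. An unadjusted p under 0.05 was reached by 3 of the 15, about the share over all genes tested (19.6%). DESeq2, which called 11.1% of the genes it gave an adjusted p, called 1 of the neighbours, *C3ar1*. *C3ar1*, which encodes the receptor for the complement fragment C3a, stood at 365, 296 and 184 CPM in wild type and at 606, 430 and 533 CPM in the libraries labelled mutant (log2 difference 0.89, SE 0.271, edgeR adjusted p = 0.150). *Necap1*, an endocytosis gene between *C3ar1* and the run, had a log2 difference of 0.16 (SE 0.128, edgeR adjusted p = 0.588), and the transcription factor gene *Foxj2* had 0.17 (SE 0.131, 0.559). These 3 genes lie within 410 kb of the *Clec4n* start.

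Inside the run, the activating receptor gene *Clec4b1* stood at 1.17, 1.86 and 2.00 CPM against 4.13, 3.16 and 4.76 CPM, without overlap (log2 difference 1.25, SE 0.400, edgeR adjusted p = 0.161). These levels rest on 10 to 64 counts per library. *Clec4a4* (log2 difference -0.15, SE 0.511) and *Clec4b2* (0.40, SE 0.754) stayed at or under 4.65 CPM in every library. Farther out, *M6pr*, which encodes a mannose 6-phosphate receptor of lysosomal transport, stood at 614, 550 and 734 CPM against 379, 448 and 521 CPM (log2 difference -0.49, SE 0.176, edgeR adjusted p = 0.196). The mRNA editing gene *Apobec1* had a log2 difference of 0.46 (SE 0.298) and the glucose transporter gene *Slc2a3* 0.62 (SE 0.311). *Phc1*, *Rimklb*, *Mfap5*, *Gdf3* and *Dppa3* had standard errors between 0.560 and 1.99 and groups that overlapped.

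**Figure D3:**
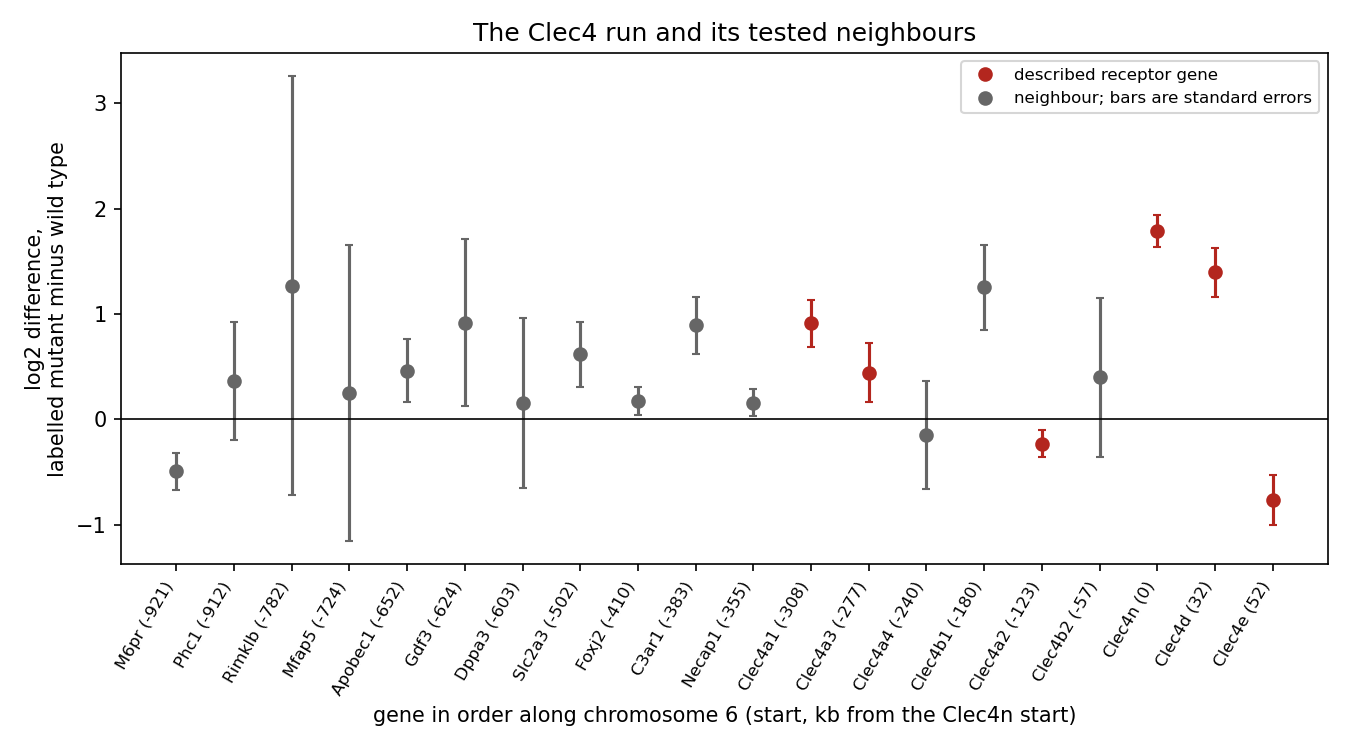
Log2 difference (labelled mutant minus wild type, bars are standard errors) of the Clec4 run genes in red and of the tested, named neighbours in grey, in order along chromosome 6 with the distance from the Clec4n start in kb. Clec4n and Clec4d stand at 1.79 and 1.40, next to Clec4e at -0.77.

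A second contrast was not the one used to choose the genes. The column names of libraries 5 and 6 carry an additional number, and those of libraries 1 to 4 do not; this is called the naming split, and it holds both genotypes on each side. In a fit with genotype as a term, edgeR called 1 of the 10 genes, *Clec10a*, and 2.29% of all genes tested. *Clec10a* stood at 406, 243, 344 and 303 CPM in libraries 1, 4, 2 and 3, but at 95.6 and 146 CPM in libraries 6 and 5. Libraries 5 and 6 were both below the others (log2 difference -1.44, SE 0.257, edgeR adjusted p = 0.0487). The call sits close to the threshold, and was lost without library 2, 5 or 6 (edgeR adjusted p = 0.0984, 0.296 and 0.518). Without library 5 or 6 a single library stood for its side. The other 9 genes had log2 differences between -0.48 for *Mrc1* (SE 0.304) and 0.53 for *Clec7a* (SE 0.283), with edgeR adjusted p-values of 0.300 or more. *Clec4n* had 0.17 (SE 0.143, edgeR adjusted p = 0.503) and *Clec4a2* 0.00339 (SE 0.139, 0.992). The choice of *Clec4n* for separating the genotypes favours a small difference along the split, so nothing is read from its value.

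Genotype differences within the sides of the split were 1.78 in libraries 1 to 4 and 1.78 between libraries 5 and 6 for *Clec4n*. Its choice for separating the genotypes favours such a match, so nothing is read from it. For *Mrc1* the differences were 0.95 and 2.11, for *Clec4a1* 0.71 and 1.42, for *Clec4d* 1.25 and 1.70, and for *Clec4e* -1.01 and -0.25. For *Clec5a* they were -0.15 and 0.87. The interaction of genotype and naming split passed for 0 of the 10 genes over all genes in edgeR, and 2 of the 10, *Clec5a* and *Mrc1*, had an unadjusted p under 0.05, as did 0.919% of all genes tested. That fit rests on 1 library of each genotype in libraries 5 and 6.

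**Figure D4:**
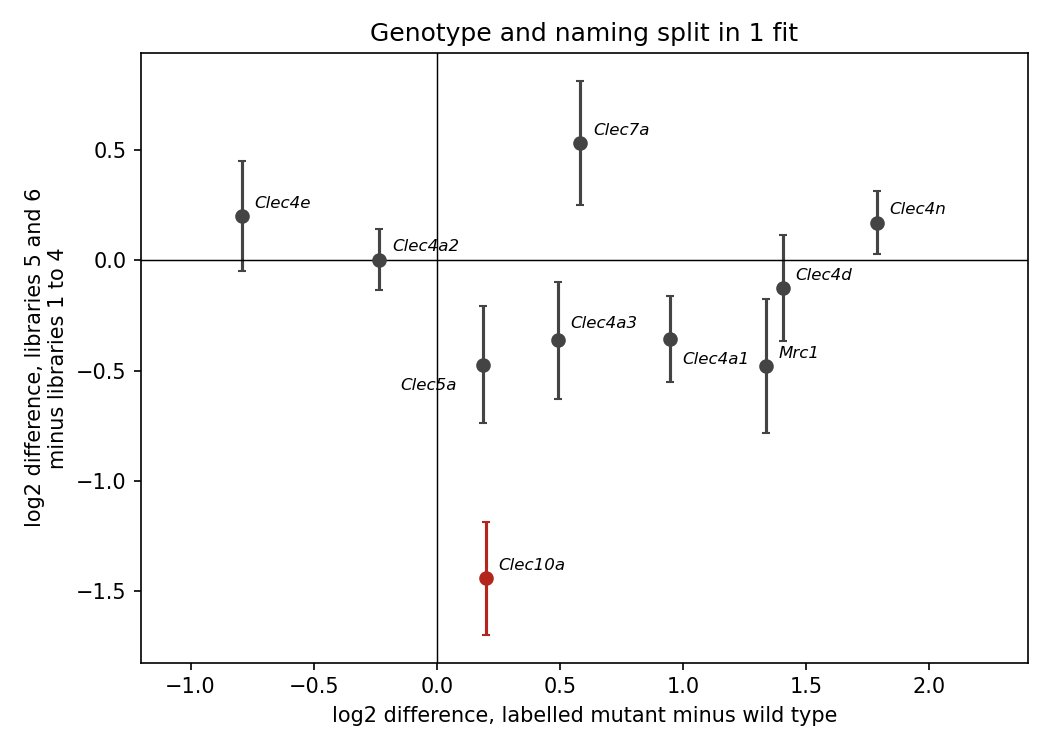
Log2 difference between libraries 5 and 6 and libraries 1 to 4 (vertical, bars are standard errors) against the log2 difference by genotype (horizontal) for the 10 genes, both from 1 fit. Clec10a, in red, passed the test on the vertical axis at -1.44, and Clec4n lies at 0.17 there.

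Other C-type lectin receptors were taken from a list of family genes. Of its genes 45 were listed in the counts and 24 were tested. Of these, 17 had a log2 difference above 0 (6567 of all 14040 genes tested) and 7 below, and the median was 0.43. None passed over all genes in edgeR (0 of 24). An unadjusted p under 0.05 was reached by 5, groups did not overlap in 6, and DESeq2 called 3. Each of these is about the share over all genes, which was 19.6%, 26.8% and 11.1%. The 4 with the highest mean were *Cd93*, *Clec12a*, *Colec12* and *Clec2d*. *Cd93*, which encodes a receptor of endothelial and myeloid cells, stood at 368, 263 and 239 CPM in wild type and at 544, 464 and 716 CPM in the libraries labelled mutant (log2 difference 0.99, SE 0.235, edgeR adjusted p = 0.105). *Clec12a*, which encodes an inhibitory receptor for uric acid crystals, stood at 470, 412 and 519 CPM against 262, 245 and 253 CPM. Its groups did not overlap, and its log2 difference was -0.88 (SE 0.125, edgeR adjusted p = 0.0590, and 0.0168 with the naming split as a term). The scavenger receptor gene *Colec12* (log2 difference 0.63, SE 0.603) and *Clec2d* (0.09, SE 0.168) overlapped. With the naming split as a term 2 of the 24 passed, *Clec12a* lower and *Clec2i* higher, where 8.68% of all genes did, so the count is about that of all genes. *Clec2i* was named after its values were seen.

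Genes of signalling downstream of the receptors were tested next. Of 46 genes 45 were tested, and 1 fell and 0 rose over all genes (edgeR, adjusted p under 0.05). The one that fell was *Malt1*, the paracaspase gene of the CARD9 complex, at 83.9, 86.6 and 76.0 CPM in wild type and 37.5, 38.4 and 41.9 CPM in the libraries labelled mutant (log2 difference -1.06, SE 0.0991, edgeR adjusted p = 0.0415). Leaving out any 1 of the 6 libraries left 0 calls in the list. The share called in all genes tested was 0.0214% for lower values. Its partners in the complex differed little: *Card9* had a log2 difference of -0.08 (SE 0.129) and *Bcl10* 0.13 (SE 0.129). Both had groups that overlapped, as did the kinase gene *Syk* at 0.26 (SE 0.145). The adaptor gene *Fcer1g*, which encodes FcRγ, stood at 432, 298 and 265 CPM against 610, 475 and 515 CPM, without overlap (log2 difference 0.69, SE 0.215, edgeR adjusted p = 0.158). *Tyrobp*, which encodes DAP12, stood at 861, 656 and 978 CPM against 871, 696 and 955 CPM (log2 difference 0.02, SE 0.203). These 5 genes beside *Malt1* were named for their place in the pathway, after their values were seen. The median of the list was 0.08, 26 genes lay above 0 (6567 of all 14040 genes tested) and 19 below. An unadjusted p under 0.05 was reached by 21 of the 45 (19.6% of all genes), groups did not overlap in 23 (26.8% of all genes), and DESeq2 called 9 higher and 5 lower (11.1% of all genes, either way). With the naming split as a term 4 rose (*Vav2*, *Map3k14* and *Nfatc2* among them), where 3.08% of all genes rose, and 5 fell (*Malt1*, *Src*, *Traf6*, *Nfatc1* and *Cblb*), where 5.6% of all genes fell.

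Genes listed as output of these receptors, mainly cytokine and early response genes with some inflammasome, caspase and oxidase genes, were mostly low. The counts held 25 of them and 17 were tested. Of the 17, 16 had a log2 difference above 0 (6567 of all 14040 genes tested) and 1 below, with a median of 0.63. Some of the 16 had differences smaller than their error, such as *Il10* (0.01, SE 0.402) and *Ccl17* (0.99, SE 1.84). None passed over all genes in edgeR (0 of 17). An unadjusted p under 0.05 was reached by 7 (19.6% of all genes), groups did not overlap in 7 (26.8% of all genes), and DESeq2 called 4 (11.1% of all genes). With the naming split as a term 3 rose, the chemokine genes *Ccl3* and *Ccl4* and the inflammasome gene *Nlrp3*, where 3.08% of all genes rose. *Ccl4* stood at 1.17, 1.16 and 2.25 CPM against 5.81, 4.69 and 7.96 CPM (log2 difference 2.00, SE 0.439, edgeR adjusted p = 0.0952, named after its values were seen). The 4 genes with the highest mean were *Cybb*, *Casp8*, *Pycard* and *Il1rn*. *Cybb*, the catalytic subunit gene of the phagocyte oxidase, stood at 860, 630 and 384 CPM against 891, 566 and 747 CPM (log2 difference 0.23, SE 0.319). *Casp8* had a log2 difference of -0.26 (SE 0.113), the inflammasome adaptor gene *Pycard* 0.44 (SE 0.149) and the receptor antagonist gene *Il1rn* 0.41 (SE 0.482), with edgeR adjusted p-values of 0.282, 0.178 and 0.740.

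**Figure D5:**
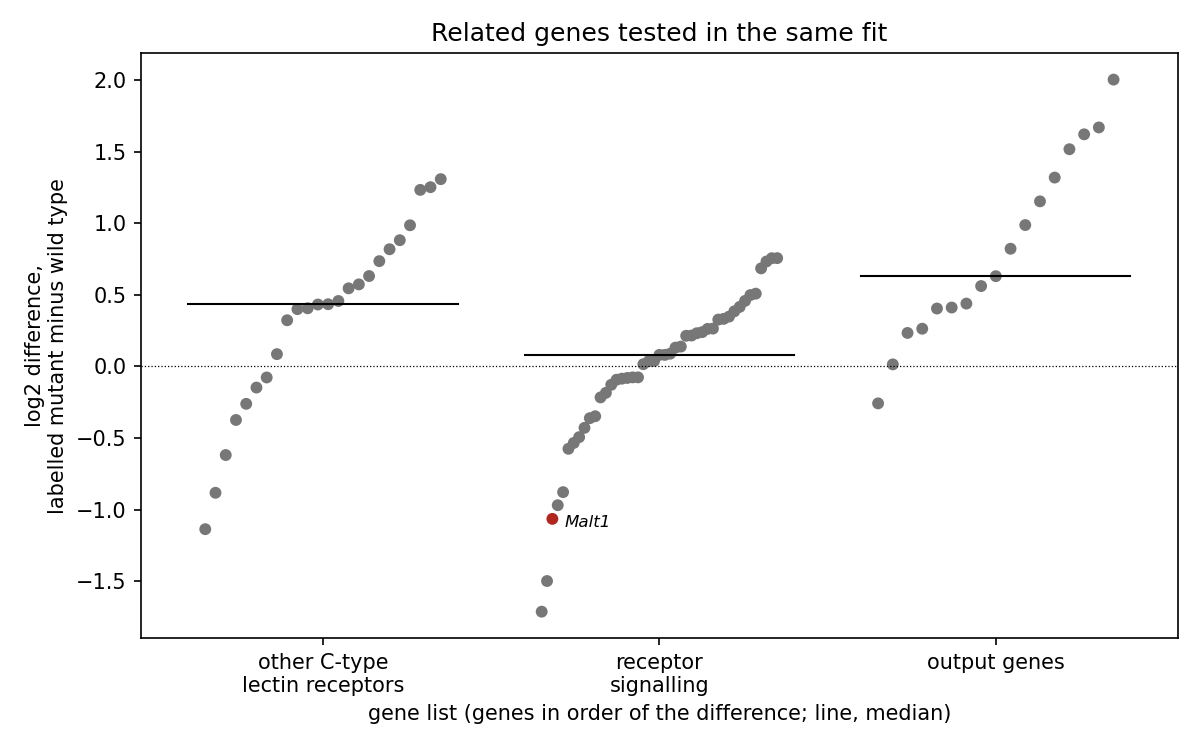
Log2 difference (labelled mutant minus wild type) of every tested gene of the 3 lists of related genes, in order of the difference within each list, with a line at the median. Malt1, in red, at -1.06, was the one gene past the threshold, and the medians were 0.43, 0.08 and 0.63.

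Genes whose pattern was most like that of *Clec4n* were sought among genes with a mean of at least 10 CPM, by Pearson's r of log2 CPM over the 6 libraries. The 5 highest had r between 0.988 and 0.994, and *Samd4*, *Trappc4*, *Cfp* and *Zfp36l1* were among them. *Samd4*, which encodes an RNA-binding protein, stood at 13.7, 11.4 and 14.9 CPM against 28.6, 39.8 and 39.4 CPM. In *Trappc4*, a vesicle transport gene, a like order of libraries went with a small difference, 32.5 against 37.2 CPM. *Cfp*, which encodes properdin, stood at 118, 136 and 132 CPM against 306, 333 and 356 CPM. With 6 libraries in 2 genotypes such values mostly reflect the separation of the genotypes, and they are given as a description. Of the other 9 receptor genes *Clec4d* was most like *Clec4n* (r = 0.892 over the 6 libraries) and *Clec4e* least (r = -0.864).

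Levels of cell type markers are set beside these values. None of the markers passed over all genes in edgeR with genotype as the only term. With the naming split as a term 7 osteoclast markers fell, where 5.6% of all genes did. In that fit 5 macrophage, 1 monocyte, 2 dendritic cell and 3 neutrophil markers rose, where 3.08% of all genes did. Lymphocyte and stromal markers had 0 calls there. Of all 14040 genes tested, 7473 had a log2 difference below 0. All 10 osteoclast markers had a log2 difference below 0. Their summed level was 15140 to 39700 CPM in wild type and 2966 to 12370 CPM in the libraries labelled mutant. Of 10 macrophage markers 9 lay above 0, and they summed to 5595 to 6974 against 8429 to 9030 CPM. Monocyte markers, 6 of 6 above 0, summed to 120 to 131 against 153 to 306 CPM. Dendritic cell markers summed to 619 to 1478 against 1214 to 4396 CPM, and *Cd74* and *H2-Aa* made up nearly all of this (3130 and 1241 CPM of the 4396 in library 5). Of the 7 tested, 5 lay above 0, while *Zbtb46* (-0.77) and *Itgax* (-0.73) lay below, and *Xcr1*, *Ccr7* and *Cd209a* stayed at or under 1.04 CPM. Neutrophil markers, 7 of 7 tested above 0, summed to 166 to 641 against 296 to 1010 CPM, and stromal markers, 6 of 6 above 0, to 843 to 2355 against 702 to 3299 CPM. Both sums were highest in libraries 5 and 6, though library 3 came near for stromal markers at 2103 CPM. *Col1a1* and *Col1a2* made up nearly all of the stromal sum (1610 and 1445 CPM of the 3299 in library 5). *Pdgfrb* was also highest in libraries 5 and 6, while *Dcn* was lowest there (8.63 and 2.17 CPM). *Pdgfra* and *Cxcl12* followed neither order. Lymphocyte markers summed to 8.78 CPM or less, with *Cd3e* and *Cd3g* at 1 count or 0 in every library. The dendritic cell marker *Clec9a* was also on the list of other C-type lectin receptors. In RNA from a whole culture, fewer cells of a type and less RNA per cell cannot be told apart, and the part of these cell types in the values of the receptor genes was not tested.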

How the data were processed

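Libraries from mRNA of mouse osteoclasts were made with a stranded kit and read from 1 end over 75 bases, per the labels' protocols. The submitters' processing notes name the build mm10 and the tools SAMtools 0.1.19, Bowtie2 2.2.3 and TopHat2 2.0.13. How reads were counted, and with which strand setting, is not given in the sources used here. The deposited values are the authors' raw counts, as whole numbers for each gene. The file had 23264 rows; after removal of 60 that repeated another row's gene and counts, 23204 genes were left.

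Each column was assigned to its genotype from its name, which carries no replicate number. The labels give 1 female and 2 males per genotype, so the libraries of a genotype cannot all be repeats of 1 animal. They do not say that the male libraries came from separate animals. Each p-value measures only the spread among these libraries, which holds any difference by sex and may in part be technical. Sex could not be tied to columns and was not a term, and whether the naming split follows sex was not tested. No 2 libraries agreed within sampling noise.

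Counts were scaled by TMM and tested with edgeR 4.0.16 (R 4.3.3, filterByExpr, quasi-likelihood test, two-sided, genotype as the only term, Benjamini-Hochberg adjustment over 14040 genes, threshold 0.05). The standard error is the log2 difference over the square root of F. The biological coefficient of variation common to all genes came to 40.9% (23.5% when the naming split was a term). The test was tried on simulated data, which held no difference along the naming split and took their spread from a fit with that term. That setting is milder than the data, so nothing about the calls is concluded from it. Alternatives were RLE scaling, no low-count filter, DESeq2 1.42.0, the naming split as a term, and each library left out; the interaction and within-split values were added after the data were seen.

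The receptor genes and lists were chosen with earlier results of these data known. Named are the 10 receptor genes, tested neighbours that are not predicted genes, up to 8 list genes past the threshold or else the 4 with the highest mean, and the 5 genes most like *Clec4n*. A few genes that the rule or lists hold are not reported here by name, and counts include them. Marker lists covered osteoclasts, macrophages, monocytes, dendritic cells, neutrophils, lymphocytes and stromal cells.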

Additional observations from a re-analysis of the deposited data

How the results depend on the processing

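All 10 receptor genes but *Clec5a* and *Clec10a* kept the sign of their genotype difference under the alternatives tried, and the median over the 10 genes stayed between 0.39 and 0.76 (0.54 as reported, 0.39 without library 5 and 0.76 without library 3). The log2 difference of *Clec4n* ran from 1.71 to 1.95 with each library left out. These alternatives reuse the same 6 libraries, and the genes were chosen with this contrast in view. A sign could hardly change where the groups do not overlap, so kept signs are a description only. Counts of calls moved more. Over all genes 10 passed, against 1219 with the naming split as a term, 81 without the low-count filter, 1402 in DESeq2, and 0 to 3 with a library left out. The fit with the naming split as a term called 8.68% of all genes tested. It called 2 of 24 other C-type lectin receptors, 9 of 45 signalling genes and 3 of 17 output genes. DESeq2 called 11.1% of the genes it gave an adjusted p. From these lists it called 3, 14 and 4 genes, and 1 of 15 neighbours on chromosome 6. The signalling count, 1 as reported, was 0 with any library left out. Along the naming split, 1 of the 10 genes passed, 0 without a genotype term (*Clec10a* -1.42, edgeR adjusted p = 0.0578), 2 without the filter (*Clec10a* and *Clec7a*) and 0 to 1 with a library left out. The cause of these moves was not tested. No paired analysis was possible because the column names carry no replicate number. Among the 10 receptor genes depth was lowest for *Clec4e*, with as few as 65 counts in a library.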

Other observations

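The gene beside *Clec10a* on chromosome 11 is *Mgl2* (70130329 to 70137550, mm10), a close copy that encodes another galactose-type lectin, 18.6 kb away with 0 genes of the table between them. It stood at 35.7, 22.5 and 5.93 CPM in wild-type libraries 1, 4 and 6 and at 8.89, 12.6 and 7.59 CPM in libraries 2, 3 and 5. Libraries 5 and 6 were lower than libraries 1 to 4 here too (log2 difference -1.32, SE 0.461), but this did not pass (edgeR adjusted p = 0.151). By genotype its log2 difference was -1.14 (SE 0.603, edgeR adjusted p = 0.375), where that of *Clec10a* was 0.09. *Clec12a*, on chromosome 6 (129342691 to 129365303), lies 96.3 kb from *Clec7a* with 5 genes between them. Its libraries labelled mutant were all below the wild-type ones, where those of *Clec7a* overlapped, and along the naming split it had a log2 difference of 0.12 (SE 0.128, edgeR adjusted p = 0.613). Both genes were singled out after their values were seen.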
